A study of Homo sapiens with 20 samples.

Results

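The binding of cohesin and CTCF was examined at 10 genes of the melanocyte lineage in M14 melanoma cells with and without knockdown of STAG2. The 10 genes were listed by name, out of 20136 protein-coding genes in the annotation, with earlier results of these data known. They comprised 4 transcription factors (MITF, SOX10, PAX3 and TFAP2A), 3 enzymes of melanin synthesis (TYR, TYRP1 and DCT) and 3 proteins of the melanosome, the organelle in which melanin is made (PMEL, MLANA and OCA2). All peaks overlapping one of these genes or the 10 kb on either side were collected from 16 peak lists, and peaks that overlapped by at least 1 bp were merged into sites. This gave 236 of the 224475 sites found genome-wide, spread over 1140 kb of windows.

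Cohesin is a ring-shaped protein complex that extrudes loops of DNA. SMC1A is a core subunit of the ring, and each ring carries either STAG1 or STAG2, whereas CTCF binds DNA by sequence and is the protein at which moving cohesin is most often held. MITF is the master regulator of the pigment cell lineage: SOX10 and PAX3 activate its gene, TFAP2A works beside it, and MITF in turn activates TYR, TYRP1, DCT, PMEL, MLANA and OCA2, in part through an extended E-box called the M-box.

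M14 is an established human melanoma cell line. All samples came from M14 cells that stably carried a doxycycline-inducible shRNA against STAG2 and were kept under puromycin selection. Cells given doxycycline for 5 days were the STAG2-KD group (KD), and the same cells without doxycycline were the control, labelled wild type (WT), so that both groups carried the hairpin construct and only KD cells were exposed to the drug. Effects of doxycycline and of the knockdown cannot be told apart here. Chromatin was precipitated with antibodies against STAG1, STAG2, CTCF or SMC1A in 2 sets of libraries (replicate 1 and replicate 2), which gave 2 WT and 2 KD lists for each antibody. No label said that the sets came from separate cultures, and they differed in size selection of the libraries (200 to 600 bp on beads in replicate 1, 200 to 500 bp on a gel in replicate 2) and in the threshold of the peak calls. The labels of the second set did not repeat the length of treatment. STAG2 protein was not measured in these files, and the KD lists still held 58521 and 106203 STAG2 peaks.

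The lists held 63535 to 148396 peaks in WT and 58521 to 150308 in KD. Since they gave no read counts, a peak was present or absent only at the authors' threshold, and the depth of each library was unknown. The lowest expected background that could be recovered from the peak values was 0.987 to 1.10 times as high in KD as in the matched WT library. In each set this background was identical for the STAG1 and STAG2 libraries of WT, so it did not tell these libraries apart. Whether matched libraries had similar coverage was thus not tested. The strength of a peak was given as its percentile in its own list, from 0 for the weakest to 100 for the strongest by -log10 p, and as fold enrichment over the expected background.

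The sequences that bear on these sites were read first. The M-box (TCATGTG, searched on both strands) was sought in the 300 bases around the canonical start (250 before to 50 after). It was found at 3 of the 10 genes, against 2.12% of 19856 promoters of protein-coding genes, and all 3 were the melanin enzymes. These were named above as activated by MITF in part through this motif, so the share is not independent of their choice. Of 12 other pigment cell genes 2 had it (16.7%), and of 10 genes of the dedifferentiated melanoma state 0. The stretches of the 3 enzymes are shown because the STAG2 values at the starts of TYR and DCT were lower in KD. They are given on the strand of the gene in hg19, with the M-box in capitals. The M-box of TYRP1 (chr9:12693216-12693270, plus strand) was at position -145 from the start and that of TYR (chr11:88910914-88910968, plus strand) at -105. DCT (chr13:95132041-95132175, minus strand) had 2 matches, the first of them at -215 and in reverse orientation.
TYRP1: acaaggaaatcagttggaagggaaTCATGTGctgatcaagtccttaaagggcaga
TYR: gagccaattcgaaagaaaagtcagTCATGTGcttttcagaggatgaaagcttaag
DCT: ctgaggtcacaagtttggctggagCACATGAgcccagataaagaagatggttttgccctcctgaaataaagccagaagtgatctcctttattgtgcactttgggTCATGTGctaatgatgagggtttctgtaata

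The core of the CTCF motif (CC-NNN-AG-NN-GGC, both strands) was sought within 100 bases of the strongest CTCF summit of each site. It was present at 14 of the 77 member sites with CTCF (18.2%, against 21.2% of all sites with CTCF) and, around the summit of the strongest peak, at 6 of the 159 sites without CTCF (3.77%, against 2.60%). Such a match describes letters and not a bound site, and none of the 3 strongest sites of MITF held one. The 3 cores below belong to the sites described later as the strongest of all member sites (MLANA, chr9:5886258-5886317), as the promoter that gained STAG1 (OCA2, chr15:28344084-28344143) and as the intronic MITF site with CTCF that lost rank for STAG2 (chr3:69969303-69969362), all on the plus strand of hg19 with the core in capitals.
MLANA upstream: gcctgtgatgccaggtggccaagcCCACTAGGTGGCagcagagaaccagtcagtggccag
OCA2 first intron: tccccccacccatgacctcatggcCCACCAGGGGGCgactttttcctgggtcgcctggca
MITF intron: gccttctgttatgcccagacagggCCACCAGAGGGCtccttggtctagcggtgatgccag

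The sites around the melanocyte lineage genes were poor in CTCF. A CTCF peak was present in at least 1 of the 4 CTCF lists at 77 of the 236 sites (32.6%, Wilson 95% interval 27.0 to 38.8%), against 57.0% of all sites and 56.3% of the sites around all protein-coding genes. The interval covers counting error only and treats neighbouring sites as independent. Sites around 12 other pigment cell genes (KIT, MC1R, MLPH and others) carried CTCF at 40.6% of 180 sites, and those around 10 genes of the dedifferentiated melanoma state (AXL, EGFR, SOX9 and others) at 47.0% of 183 sites. The windows also held many sites seen with SMC1A alone, 100 of 236 (42.4%, against 23.6% of all sites), of which 93 were present in replicate 2 only, the set with the more lenient threshold. When sites of SMC1A alone were left out, a choice made after seeing the data, CTCF was found at 56.6% of the member sites. Under the same exclusion it was found at 74.6% of all sites and 75.7% of the sites around protein-coding genes. The other pigment cell genes then had CTCF at 57.0% of 128 sites, close to the members, and the dedifferentiated state genes at 75.4% of 114.

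Sites with and without CTCF were compared over the 12 cohesin lists, leaving out the CTCF lists that define the classes, a choice made after seeing the data. Sites with CTCF were found in a median of 9 of these lists and had a median mean percentile of 29.0, with absent peaks counted as 0. Sites without CTCF were found in a median of 1 list and had a median mean percentile of 2.64. Their median widths, over all merged peaks, were 923 bp and 282 bp. Only 5 of the 159 sites without CTCF carried STAG2 in all 4 STAG2 lists, compared with 30 of the 77 sites with CTCF. Such counts over all sites are not given here, and the contrast was not particular to these genes. Over all WT STAG2 peaks, those with a CTCF peak of the same set had a median percentile of 63.5 and those without 21.6 in replicate 1. In replicate 2 the values were 64.0 and 26.2. The STAG2 peaks of the windows had 57.8 and 31.1, and 60.5 and 26.5. The M-box was present near the summit of 13 of the 159 sites without CTCF (8.18%, against 3.91% of all such sites). With CTCF it was present at 1 of the 77 (1.30%, against 2.70%). Of the sites without CTCF around the other pigment cell genes, 9 of 107 held it (8.41%), a share close to that of the members. Around the dedifferentiated state genes 2 of 97 such sites held it (2.06%). Most sites were in introns (162 of 236), and 49 of these intronic sites carried CTCF.

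The genes differed widely in how many sites they held. MITF (chr3:69788607-70017487, plus strand) had 84 sites, or 3.38 per 10 kb, and exceeded 94.5% of protein-coding genes in this density. SOX10 (chr22:38366693-38383429, minus strand) had 16 sites, PAX3 (chr2:223064606-223163717, minus strand) 27 and TFAP2A (chr6:10393419-10419892, minus strand) 23. TYR (chr11:88911043-89028927, plus strand) had 22, TYRP1 (chr9:12685439-12710285, plus strand) 7 and DCT (chr13:95089065-95131936, minus strand) 21. PMEL (chr12:56347889-56367101, minus strand) had 10, MLANA (chr9:5890889-5910606, plus strand) 9 and OCA2 (chr15:28000021-28344461, minus strand) 17. OCA2, the longest gene, was the sparsest at 0.466 sites per 10 kb, exceeding only 18.4% of protein-coding genes, and each of its 17 sites carried CTCF. At the other end, PAX3 carried CTCF at 4 of 27 sites, DCT at 4 of 21 and MITF at 20 of 84. The windows of SOX10, PMEL and MLANA also reached into other protein-coding genes (POLR2F for SOX10, DGKA, CDK2 and RAB5B for PMEL, KIAA2026 for MLANA), and sites there were counted with the member.

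Upon STAG2 KD, fewer STAG2 peaks were called in the windows in both replicates. There were 87 STAG2 peaks in WT and 48 in KD in replicate 1, and 137 and 119 in replicate 2, a log2 change of -0.86 and -0.20 (mean -0.53 ± 0.46, SD, n = 2 sets). Over all STAG2 peaks the log2 change was -0.43 and -0.16. With the strongest 58521 peaks of every list, the mean change in the windows was -0.27. The WT and KD numbers of the windows overlapped across the sets, and an exact permutation test of the 2 WT against the 2 KD lists, two-sided, gave p = 0.667. This test ignores the pairing by set, and the sets were called at different thresholds. An exact sign-flip test of the paired log2 changes gave p = 0.5, the smallest that 2 sets can give. The smallest p that 2 against 2 lists can give is 0.333, so no such test in these data could pass a threshold of 0.05.

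SMC1A peaks were also fewer in the windows in KD, while their number over the genome was not. The windows held 133 SMC1A peaks in WT and 95 in KD in replicate 1, and 225 and 171 in replicate 2 (log2 changes of -0.49 and -0.40, mean -0.44 ± 0.06, SD, n = 2 sets, exact permutation p = 0.667). Over all SMC1A peaks the log2 change was 0.15 and 0.02. At a stricter threshold, -log10 q of at least 5, the mean change in the windows was -0.12 and the direction was not shared by the sets, with 66 peaks in WT and 55 in KD in replicate 1 and 74 and 75 in replicate 2. Around the dedifferentiated state genes SMC1A peaks numbered 70 in WT and 88 in KD in replicate 1 and 131 and 142 in replicate 2, whereas around the other pigment cell genes they numbered 94 and 81, and 153 and 130. Whether the gene lists differed from one another was not tested.

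STAG1 and CTCF showed no such pattern. STAG1 peaks in the windows numbered 60 in WT and 69 in KD in replicate 1, and 89 and 89 in replicate 2 (mean log2 change 0.10 ± 0.14, SD, n = 2 sets, exact permutation p = 1.00), against log2 changes of 0.43 and 0.09 over all STAG1 peaks. CTCF peaks numbered 53 and 58, and 80 and 71 (mean log2 change -0.02 ± 0.21, SD, n = 2 sets, exact permutation p = 1.00). The direction of the STAG1 and CTCF changes turned with the processing.

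**Figure D1:**
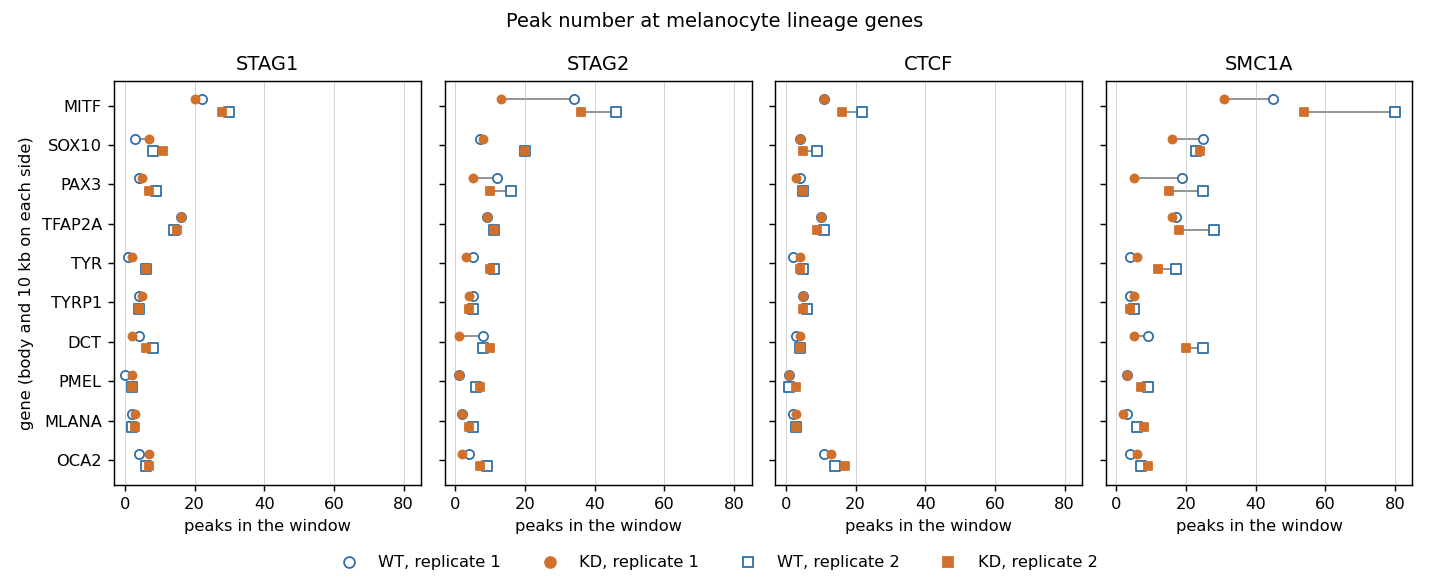
Number of peaks (horizontal axis, from 0) in the window of each gene, in WT (open symbols) and KD (filled symbols), for replicates 1 and 2 and each of the 4 antibodies. MITF held the most peaks, and its STAG2 peaks numbered 34 in WT and 13 in KD in replicate 1 and 46 and 36 in replicate 2.

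MITF held most of the difference for STAG2. Its STAG2 peaks numbered 34 in WT and 13 in KD in replicate 1, and 46 and 36 in replicate 2, and its SMC1A peaks 45 and 31, and 80 and 54. In the window of PAX3, a paired-box factor of the neural crest, peaks of both antibodies were fewer in KD with no overlap between the WT and the KD lists. STAG2 peaks numbered 12 and 5 in replicate 1 and 16 and 10 in replicate 2, and SMC1A peaks 19 and 5, and 25 and 15 (exact permutation p = 0.333 for each, the smallest possible). PAX3 was not alone in this, since STAG2 at TYRP1 had the same p, with 5 and 4 peaks in both sets. STAG1 also had it, with more peaks in KD, at MLANA (2 and 3 in both sets) and OCA2 (4 and 7, and 6 and 7). How many of all genes show such a separation was not counted. SOX10 and TFAP2A showed no such difference for STAG2. STAG2 peaks of SOX10 numbered 7 in WT and 8 in KD in replicate 1 and 20 and 20 in replicate 2, and those of TFAP2A 9 and 9, and 11 and 11.

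Among the enzymes, DCT, which converts dopachrome, held 8 STAG2 peaks in WT and 1 in KD in replicate 1, but 8 and 10 in replicate 2, so its sets went opposite ways. TYR, the rate-limiting enzyme of melanin synthesis, held 5 and 3, and 11 and 10, and TYRP1, which stabilises TYR and oxidises an intermediate, 5 and 4 in both sets. Of the melanosome proteins, PMEL, which forms the fibrils on which melanin is laid down, held 1 and 1 STAG2 peaks, and 6 and 7, and MLANA, a membrane protein of early melanosomes, 2 and 2, and 5 and 4. OCA2, a melanosomal anion channel, held 4 and 2 STAG2 peaks, and 9 and 7. Its STAG1 peaks numbered 4 and 7, and 6 and 7, its CTCF peaks 11 and 13, and 14 and 17. Its SMC1A peaks numbered 4 and 6, and 7 and 9. OCA2 was the only one of the 10 genes with fewer STAG2 peaks and more peaks of the other 3 antibodies in KD in both sets. The differences were of few peaks. Over all peaks, STAG2 was also fewer and STAG1 and SMC1A more numerous in KD in both sets, while CTCF changed by 0.04 and -0.08 in log2. How many of all genes show this pattern was not counted.

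A peak of WT was called lost when no KD peak of the same antibody and set overlapped it, and a peak of KD was called gained by the same rule. Of the STAG2 peaks in the windows, 44 of 87 (50.6%, against 32.2% of all STAG2 peaks) were lost in replicate 1 and 46 of 137 (33.6%, against 22.1%) in replicate 2. Of the SMC1A peaks, 63 of 133 (47.4%, against 19.1%) and 95 of 225 (42.2%, against 25.8%) were lost. The STAG1 peaks were lost at 11 of 60 (18.3%, against 6.42%) and 20 of 89 (22.5%, against 13.6%), and the CTCF peaks at 5 of 53 (9.43%, against 12.3%) and 17 of 80 (21.2%, against 16.9%). The lost share was thus above that of all peaks for 3 cohesin subunits in both sets, and on either side of it for CTCF. Without MITF, which held the most sites, the STAG2 share was 41.5% and 33.0% and the SMC1A share 47.7% and 37.2%. For comparison, the dedifferentiated state genes lost 29.4% and 14.5% of STAG2 peaks and 15.7% and 21.4% of SMC1A peaks, and the other pigment cell genes 43.8% and 29.5%, and 34.0% and 34.0%.

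Gained peaks were close to the background for 3 of the antibodies. STAG2 peaks were gained at 2 of 48 (4.17%, against 6.62%) and 17 of 119 (14.3%, against 12.0%), STAG1 peaks at 22 of 69 (31.9%, against 31.7%) and 20 of 89 (22.5%, against 18.6%), and CTCF peaks at 11 of 58 (19.0%, against 15.1%) and 10 of 71 (14.1%, against 12.1%). SMC1A peaks were gained at 29 of 95 (30.5%, against 28.6%) in replicate 1 and at 33 of 171 (19.3%, against 29.7%) in replicate 2.

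Lost peaks were mostly weaker than kept ones. The lost STAG2 peaks of the windows had a median percentile in WT of 26.4 and 19.0 in the 2 replicates, and those that were kept 57.6 and 55.0. Over all STAG2 peaks these medians were 19.6 and 17.4 for lost peaks and 66.0 and 61.0 for kept ones. No STAG2 peak from the strongest 25% of its WT list was lost in the windows, 0 of 10 in replicate 1, all with CTCF, and in replicate 2 0 of 18 with CTCF and 0 of 2 without it. This was also so for nearly all peaks of the genome, since of those in the strongest 25% with CTCF 4 of 19747 and 0 of 29490 were lost. In the next 25% of the WT lists, 0 of 12 and 0 of 14 STAG2 peaks of the windows with CTCF were lost. Without CTCF, 3 of 7 (42.9%, against 17.3% of all such peaks) and 1 of 19 (5.26%, against 5.24%) were lost there.

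The loss was also divided by CTCF. A STAG2 peak of WT was counted as with CTCF when a CTCF peak of the same set in WT overlapped it, which held for 41.4% and 39.4% of the STAG2 peaks in the windows, against 72.6% and 68.7% of all STAG2 peaks. With CTCF, 7 of 36 STAG2 peaks (19.4%, all peaks 19.0%) and 10 of 54 (18.5%, all peaks 12.2%) were lost in replicates 1 and 2. Without CTCF, 37 of 51 (72.5%, all peaks 67.3%) and 36 of 83 (43.4%, all peaks 43.8%) were lost. Within the classes, the share of the windows was within 1 percentage point of that of all peaks with CTCF in replicate 1 and without CTCF in replicate 2, and above it in the other two cases.

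For SMC1A, the lost share of the windows was above that of all peaks in each class and set. With CTCF, 6 of 37 SMC1A peaks (16.2%, all peaks 7.54%) and 7 of 55 (12.7%, all peaks 9.42%) were lost, and without CTCF 57 of 96 (59.4%, all peaks 40.9%) and 88 of 170 (51.8%, all peaks 45.5%). For STAG1 the lost share was 2 of 32 (6.25%, all peaks 2.92%) and 4 of 48 (8.33%, all peaks 6.81%) with CTCF, and 9 of 28 (32.1%, all peaks 24.9%) and 16 of 41 (39.0%, all peaks 37.4%) without it. MITF followed the pattern for STAG2, losing 2 of 9 and 1 of 15 peaks with CTCF and 20 of 25 and 15 of 31 without it. OCA2 did not, since all of its STAG2 peaks carried CTCF and 2 of 4 and 5 of 9 were lost.

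**Figure D2:**
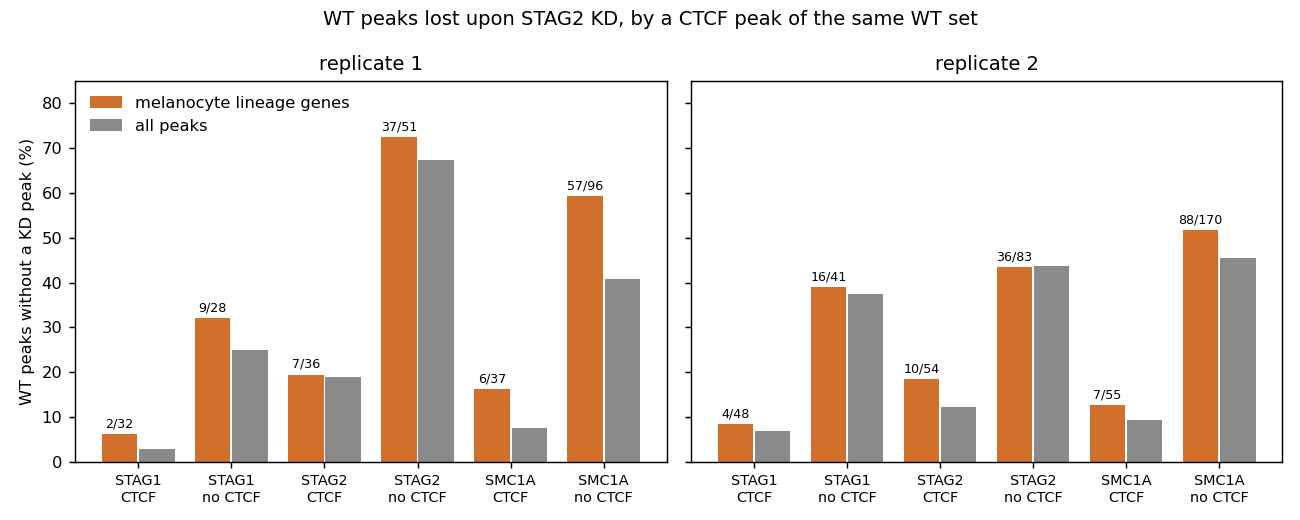
Share of WT peaks (percent, axis from 0) with no overlapping KD peak, split by overlap with a CTCF peak of WT, for the member windows and for all peaks, by antibody and replicate. For STAG2, 72.5% and 43.4% of the member peaks without CTCF were lost, against 19.4% and 18.5% of those with CTCF.

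The peaks of STAG1 and SMC1A at the lost STAG2 peaks were then counted. A peak of STAG1 present in KD but not in WT overlapped 5 of the 44 lost STAG2 peaks in replicate 1 (11.4%, against 20.4% of all lost STAG2 peaks) and 4 of 46 in replicate 2 (8.70%, against 9.95%). The share was below that of all lost peaks in replicate 1 and near it in replicate 2. No STAG1 peak was present in either condition at 26 of the 44 (59.1%, against 43.7%) and 34 of the 46 (73.9%, against 65.0%). In the window of MITF, 3 of 22 lost STAG2 peaks carried a new STAG1 peak in replicate 1 and 0 of 16 in replicate 2. In replicate 1, an SMC1A peak overlapped 23 of the 44 lost STAG2 peaks in WT (52.3%, against 49.9%) and 16 in KD (36.4%, against 49.2%). In replicate 2 it overlapped 36 of the 46 in WT (78.3%, against 50.5%) and 20 in KD (43.5%, against 38.6%).

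Sites called in both sets were then taken one by one, with the peaks of each antibody's 4 lists merged into sites of their own. STAG2 was lost in both sets at 8 of the 69 member sites present in both WT lists (11.6%, against 4.98% of all such sites) and gained in both at 0 of 36 (against 0.734%). Of these 8, 3 were at PAX3, each with the strongest summit of its site in an intron, at chr2:223083613-223084072, chr2:223084356-223085141 and chr2:223145832-223146045. TYR had 2, at chr11:88911735-88912164 in a coding exon and chr11:88916052-88916614, and MITF (chr3:69953624-69954034), DCT (chr13:95095746-95095988) and OCA2 (chr15:28266663-28267176) had 1 each.

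The strongest of them without CTCF was at PAX3, chr2:223084356-223085141, with STAG2 at percentile 35.02 in replicate 1 and 51.0 in replicate 2 in WT (fold enrichment 5.79 and 4.595) and no peak in KD. SMC1A stood there at percentile 54.2 in WT and had no peak in KD in replicate 1, and was at 62.3 and 23.7 in replicate 2. No CTCF list held a peak at this site. The 201 bases around its summit (chr2:223084715-223084915, plus strand of hg19, in an intron at the summit) are shown because they hold an M-box, in capitals, the only one among the 8 lost sites. Only the summit was annotated, so the ends of the stretch, and of the peak, may reach beyond the intron.
PAX3 intron: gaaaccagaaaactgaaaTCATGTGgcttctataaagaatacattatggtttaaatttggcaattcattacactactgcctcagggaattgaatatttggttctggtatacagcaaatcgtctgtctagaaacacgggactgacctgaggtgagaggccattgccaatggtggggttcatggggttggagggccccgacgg

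The OCA2 site behaved unlike the others. At chr15:28266663-28267176, in an intron 77.6 kb into the gene, STAG2 was at percentile 41.7 and 47.3 in WT (fold enrichment 7.36 and 4.16) and had no peak in KD in either set. CTCF there had a fold enrichment of 38.0 in WT and 42.3 in KD in replicate 1, and 33.8 and 37.9 in replicate 2. SMC1A had 5.93 and 12.7, and 5.81 and 12.7, and STAG1 7.37 and 10.8, and 5.30 and 6.50. The site thus lost its STAG2 peak while the values of STAG1, CTCF and SMC1A were higher in KD in both sets.

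For the other antibodies the calls in both sets were few. SMC1A was lost at 6 of 72 sites (8.33%, against 3.22%), 3 of them at PAX3 (chr2:223063418-223063594, chr2:223112875-223114024 and chr2:223156908-223157653), 2 at TFAP2A (chr6:10385804-10386085 and chr6:10409218-10409423) and 1 at DCT (chr13:95102145-95102333). It was gained at 2 of 61 (3.28%, against 5.70%), beside SOX10 (chr22:38391082-38391293) and in OCA2 (chr15:28262667-28263188). STAG1 was lost at 2 of 45 (4.44%, against 1.41%), at MITF (chr3:69951374-69952155) and DCT (chr13:95095617-95095943). STAG1 was gained at 3 of 51 (5.88%, against 6.18%), at MITF (chr3:69796999-69797321) and at 2 sites of OCA2 (chr15:28118236-28118648 and chr15:28343949-28344415). CTCF was lost at 1 of 48 (2.08%, against 3.11%), at MITF (chr3:69941998-69942432), and gained at 0 of 54 (against 1.92%). The DCT site that lost STAG1 overlapped the one that lost STAG2.

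Rank was followed at sites present in all 4 lists of an antibody, and a site was called moved when its percentile changed by at least 10 points in the same direction in both sets. STAG2 fell at 7 of 36 member sites (19.4%, against 9.72% of all such sites) and rose at 0 (against 1.90%). Of the 7, 5 lay in MITF, 1 at the start of TYR and 1 in OCA2. The median percentile change of STAG2 was -11.2 and -2.77 in the windows and -8.33 and -1.94 over all sites, and in MITF, over 11 sites, it was -21.3 and -8.77.

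Of the 5 MITF sites, 2 had no CTCF peak, 1 had CTCF in replicate 2 only and 2 had it in all 4 lists. At chr3:69870104-69871007, where no CTCF peak was called, STAG2 went from percentile 64.0 to 15.7 in the first set and from 73.6 to 58.5 in the second. At chr3:69887398-69889844, with CTCF in replicate 2 only, it went from 57.6 to 8.66 and from 76.6 to 65.5, and at chr3:69910178-69911488, with no CTCF, from 60.8 to 14.1 and from 80.1 to 69.9. At chr3:69968995-69969750, which carried CTCF in all 4 lists and the core shown above, it went from 65.1 to 42.4 and from 76.7 to 60.7. The fifth site, chr3:69986448-69988534, lay beside the start of MITF-M, the transcript of melanocytes, with CTCF at percentiles of 10.1 to 41.4, and there STAG2 went from 50.2 to 18.5 and from 66.7 to 55.1.

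**Figure D3:**
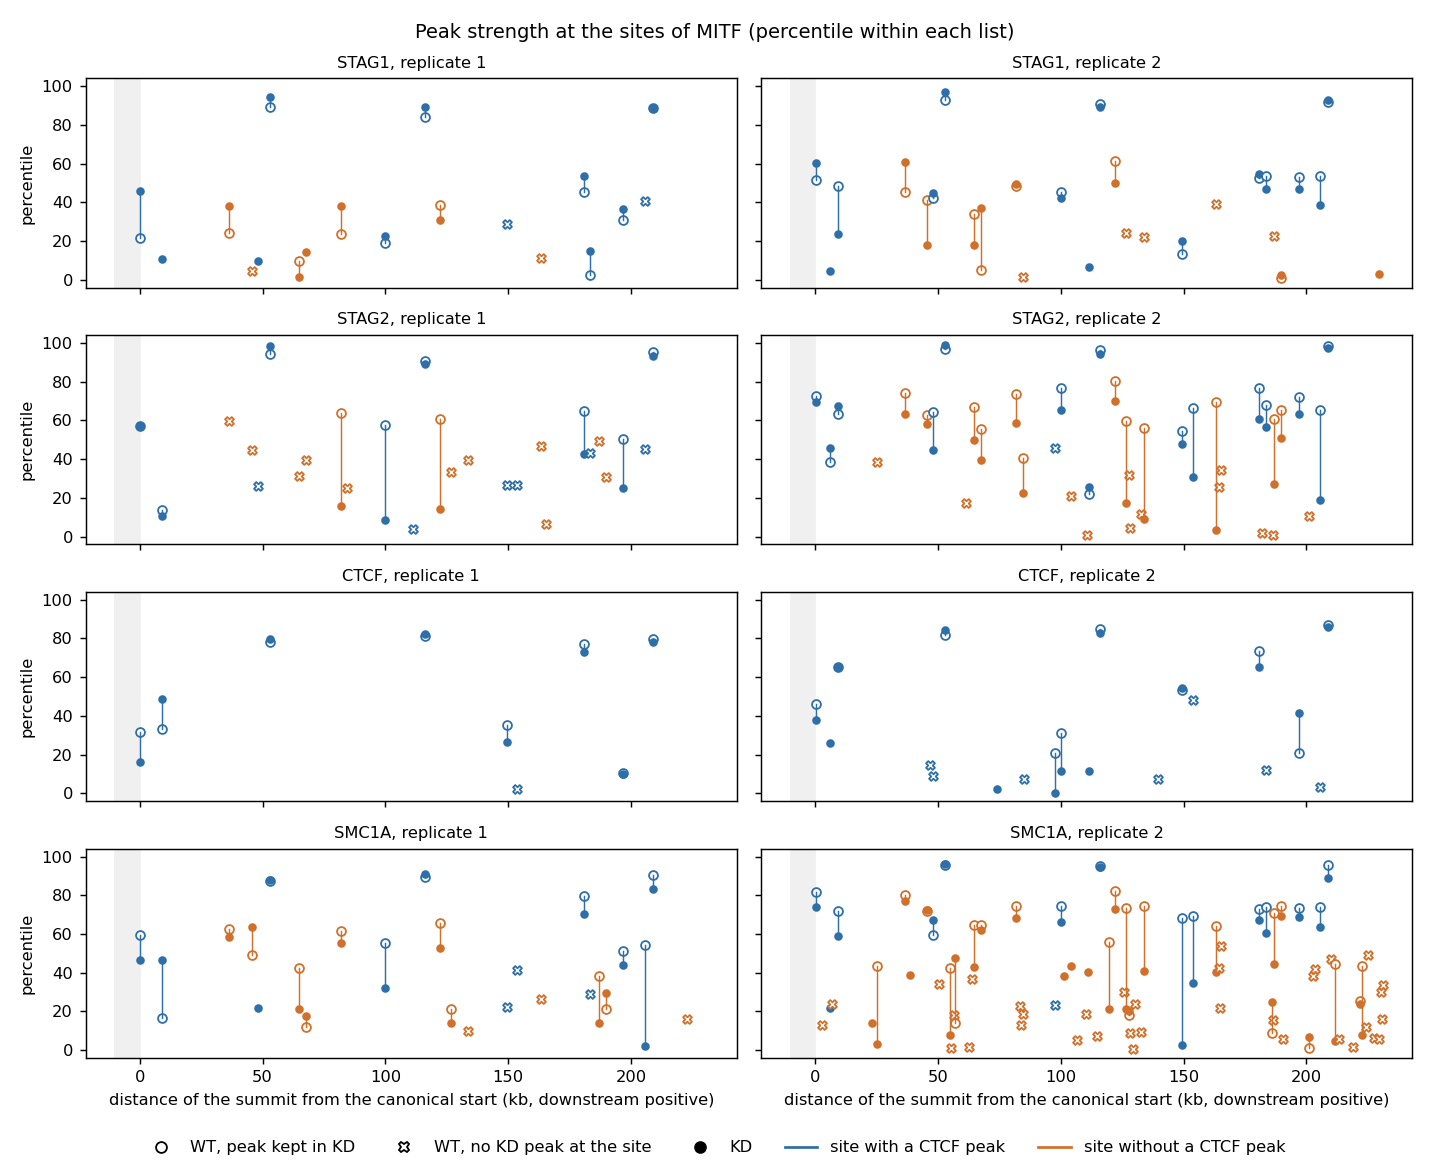
Percentile of each peak list at the sites along MITF (horizontal axis, distance in kb from the canonical start, with the 10 kb upstream shaded grey), by antibody and replicate, WT and KD. Open symbols are WT, filled are KD and crosses are WT peaks with no KD peak at the site, in blue with and in orange without CTCF. The 3 strongest sites stood at percentiles of at least 78.0 in every list.

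The 3 strongest sites of MITF kept their place near the top of the lists. The strongest, chr3:69839526-69843511 in an intron 52.8 kb into the gene, was present in all 16 lists at percentiles of 78.0 to 99.0, and STAG2 there was at 94.2 in WT and 98.6 in KD in the first set and at 96.8 and 99.0 in the second. Its fold enrichment was higher in KD than in WT for all 4 antibodies in both sets, for CTCF 36.2 and 46.4 in replicate 1 and 20.7 and 27.5 in replicate 2. The sites at chr3:69903646-69907103 and chr3:69995368-69998386 were likewise in all 16 lists, with STAG2 at 90.6 and 89.4, and 96.2 and 94.5, at the former, and at 95.5 and 93.3, and 98.6 and 97.2, at the latter.

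The other antibodies moved at fewer sites. SMC1A fell at 6 of 54 member sites (11.1%, against 3.57%), 3 of them in MITF (chr3:69852668-69853771, chr3:69975299-69976085 and chr3:69993178-69995180) and 1 each in SOX10, DCT and MLANA, and rose at 1 (1.85%, against 4.60%), the start of OCA2. At the SOX10 site, chr22:38366283-38370484, its percentile changed by -31.2 and -11.1. STAG1 rose at 3 of 38 (7.89%, against 6.10%), the canonical start of MITF, an intron of MITF (chr3:69824687-69825525) and a site downstream of SOX10 (chr22:38363965-38365483), and fell at 1 (2.63%, against 0.832%), in MLANA. CTCF fell at 1 of 44 (2.27%, against 4.43%) and rose at 2 (4.55%, against 1.67%), all 3 in OCA2, at chr15:28265111-28265515, chr15:28098679-28099083 and chr15:28142627-28143025.

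At 2 of the 23 member sites found in all 16 lists, fold enrichment was lower in KD for all 4 antibodies in both sets (8.70%, against 6.10% of all sites found in all lists). One was in an intron of MLANA, chr9:5898983-5900026. Its fold enrichment went from 18.5 to 6.59 and from 13.5 to 8.09 for STAG2, from 11.6 to 4.54 and from 11.1 to 3.90 for STAG1, and from 26.9 to 17.0 and from 32.6 to 15.7 for CTCF. SMC1A there went from 7.42 to 3.79 and from 8.80 to 5.78. The other was in an intron of OCA2, chr15:28330628-28332082, the strongest site of that gene, where STAG2 went from 22.6 to 6.55 and from 15.7 to 6.28 and CTCF from 73.4 to 54.4 and from 52.3 to 27.4. STAG1 there went from 23.8 to 16.2 and from 17.8 to 9.97, and SMC1A from 24.6 to 12.2 and from 18.0 to 9.45. Values for all 4 antibodies were higher in KD in both sets at 2 other sites (8.70%, against 8.21%), the strongest MITF site and one downstream of TYRP1 (chr9:12718854-12720191). Over all sites in the 4 lists of an antibody, the median log2 ratio of fold enrichment, KD over WT, was -0.40 and -0.15 for STAG2, 0.20 and 0.22 for SMC1A, 0.39 and 0.05 for STAG1 and 0.05 and -0.04 for CTCF.

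**Figure D4:**
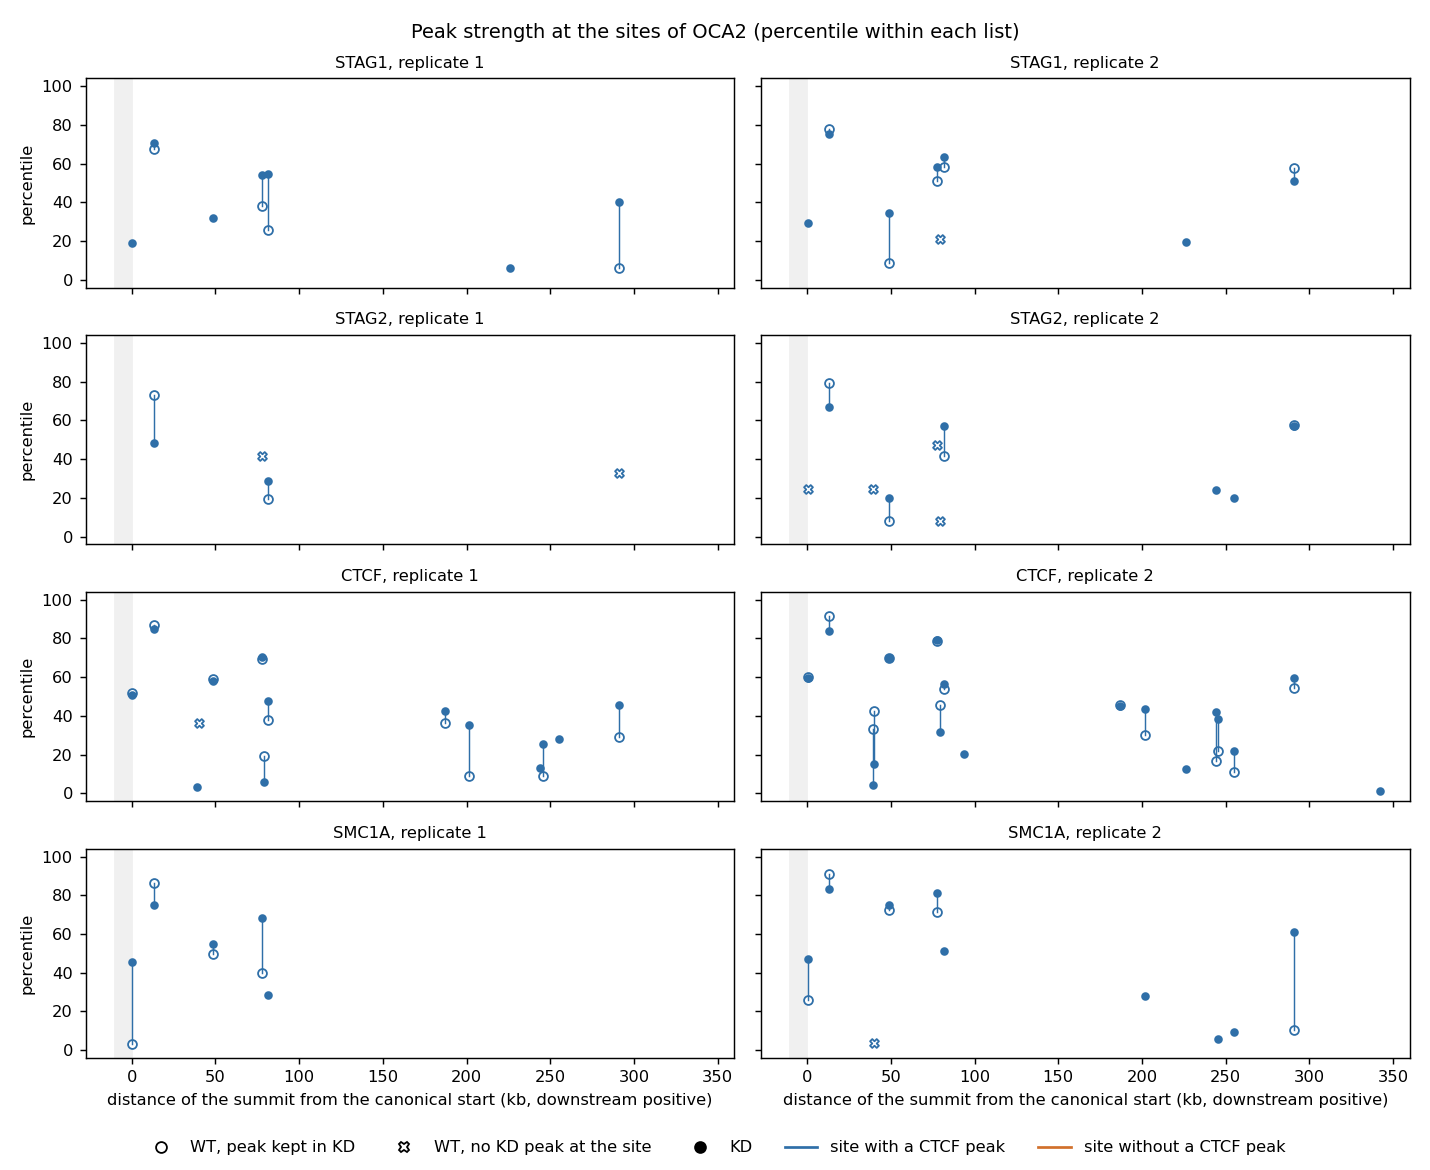
Percentile of each peak list at the 17 sites along OCA2 (horizontal axis, distance in kb from the canonical start along the gene, with the 10 kb upstream shaded grey), by antibody and replicate, WT and KD. All 17 sites carried CTCF, and STAG2 had no KD peak at the site 77.6 kb into the gene.

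Transcript starts were examined next. A site lay within 1 kb of an annotated start of a member in 38 cases, of which 16 carried CTCF and 22 did not. Of the 38, 9 were in all 16 lists, 9 were in 6 to 15 lists, and the other 20 were in at most 5 lists, 10 of them in a single list. The transcription factor genes held 20 of the 38, of which 7 were in all 16 lists. Such counts over the starts of all genes were not taken, so whether these shares are unusual was not tested. Among the transcription factor genes, MITF had sites in all 16 lists at its canonical start (chr3:69787365-69790868) and at the start of MITF-M (chr3:69985005-69988558). PAX3 had one at chr2:223158160-223164555, and TFAP2A had them at chr6:10409218-10416498 and chr6:10402687-10408153. In SOX10, a merged site of 16.7 kb (chr22:38366283-38382994) covered nearly the whole gene.

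At the canonical start of MITF (chr3:69788005-69789493), STAG1 went from percentile 14.01 in WT to 45.8 in KD in the first set and from 44.6 to 60.5 in the second. A second STAG1 interval in the same merged site (chr3:69789916-69790626) was lower in KD, at 21.8 and 17.6, and 51.5 and 44.2, and was not called moved. The rise thus held for 1 part of the merged site only. STAG2 was not called moved there, with percentiles of 57.3 and 56.9 in replicate 1 and 72.5 and 69.5 in replicate 2. At the start of PAX3, STAG1 was at 24.8 and 48.7, and 61.7 and 63.5, and STAG2 at 58.7 and 44.3, and 80.3 and 78.6.

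The starts of TYR and DCT, both with an M-box in the sequences shown, had no CTCF peak in any list, although a separate site just upstream of TYR (chr11:88909875-88910652) held a single CTCF peak, in KD of replicate 1. Farther upstream of TYR, a site in 13 lists, with STAG2 in all 4 of its lists (chr11:88908775-88909574), also held CTCF and a CTCF core. Its strongest CTCF peak stood at percentile 32.8, in KD of replicate 2. At the start of TYR (chr11:88910730-88911602, 10 lists), STAG2 was at percentile 35.5 in WT and 0.85 in KD in the first set, and at 55.0 and 30.9 in the second, with fold enrichments of 6.10 and 3.07, and 4.99 and 3.19. SMC1A at the same start did not keep one direction, at percentiles 29.4 and 51.7 in replicate 1 and 71.8 and 49.2 in replicate 2. At the start of DCT (chr13:95126779-95133545, 10 lists), STAG2 was at 52.3 in WT with no peak in KD in the first set, and at 75.04 and 42.8 in the second, with fold enrichments of 9.45 in WT in replicate 1 and of 10.5 and 4.19 in replicate 2. SMC1A there went from 61.1 to 17.6 and from 74.9 to 64.3, so that STAG2 and SMC1A were both lower in KD in both sets.

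TYRP1, the third gene with an M-box, had no site within 1 kb of its canonical start. Its strongest site, chr9:12701741-12703080, lay 8.99 kb into the gene near the start of another transcript and was present in all 16 lists, with STAG2 at 85.7 and 85.4, and 91.0 and 91.0. The canonical starts of PMEL and MLANA were found in at most 7 lists. That of PMEL (chr12:56359272-56360959, 7 lists) held SMC1A in 4 lists, STAG2 in 2 and CTCF in 1, and that of MLANA (chr9:5890677-5891377) was found in 5 lists.

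The start of OCA2 (chr15:28343808-28344426, 11 lists) was bound by CTCF at percentiles of 51.8 and 50.7 in replicate 1 and 60.3 and 59.6 in replicate 2, over the core shown above, 4 bases from the summit. STAG1 had no peak there in WT and was at 19.1 and 29.5 in KD in the 2 replicates (fold enrichment 4.66 and 3.47). SMC1A rose from 3.30 to 45.4 and from 26.1 to 46.9. STAG2 was called once, in WT of replicate 2, at 24.4.

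The strongest site of each gene was taken by its mean percentile over the 16 lists, which counts absent peaks as 0 and so favours sites with CTCF. Over the 12 cohesin lists alone, a choice made after seeing the data, the strongest site was the same for 9 of the 10 genes, all with CTCF. The exception was TYR, where a site without CTCF upstream of the gene (chr11:88901017-88902137) had a mean percentile of 39.7 over these lists. The strongest site of MLANA, chr9:5885683-5887077, 4.58 kb upstream, was the strongest of all member sites, at percentiles of 90.6 to 99.2 in the 16 lists. SOX10 had its strongest at chr22:38360472-38362403, 19.2 kb downstream of the start, where SMC1A fold enrichment was 13.9 in WT and 21.9 in KD in replicate 1 and 7.66 and 16.7 in replicate 2. PAX3 had it at chr2:223154548-223156499, TFAP2A at its start, and DCT at its 3′ end at chr13:95086464-95089248, where STAG2 was at 82.0 and 82.0, and 87.8 and 91.8. At the strongest site of PMEL (chr12:56349501-56350423, 15 lists) CTCF went from a fold enrichment of 23.7 to 35.7 and from 16.9 to 26.9, and SMC1A from 5.51 to 9.89 and from 5.44 to 9.90. The strongest site of TYR (chr11:88938282-88939168, 13 lists) held CTCF at 49.3 and 45.0, and 68.0 and 59.98, and STAG2 only in replicate 2.

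**Figure D5:**
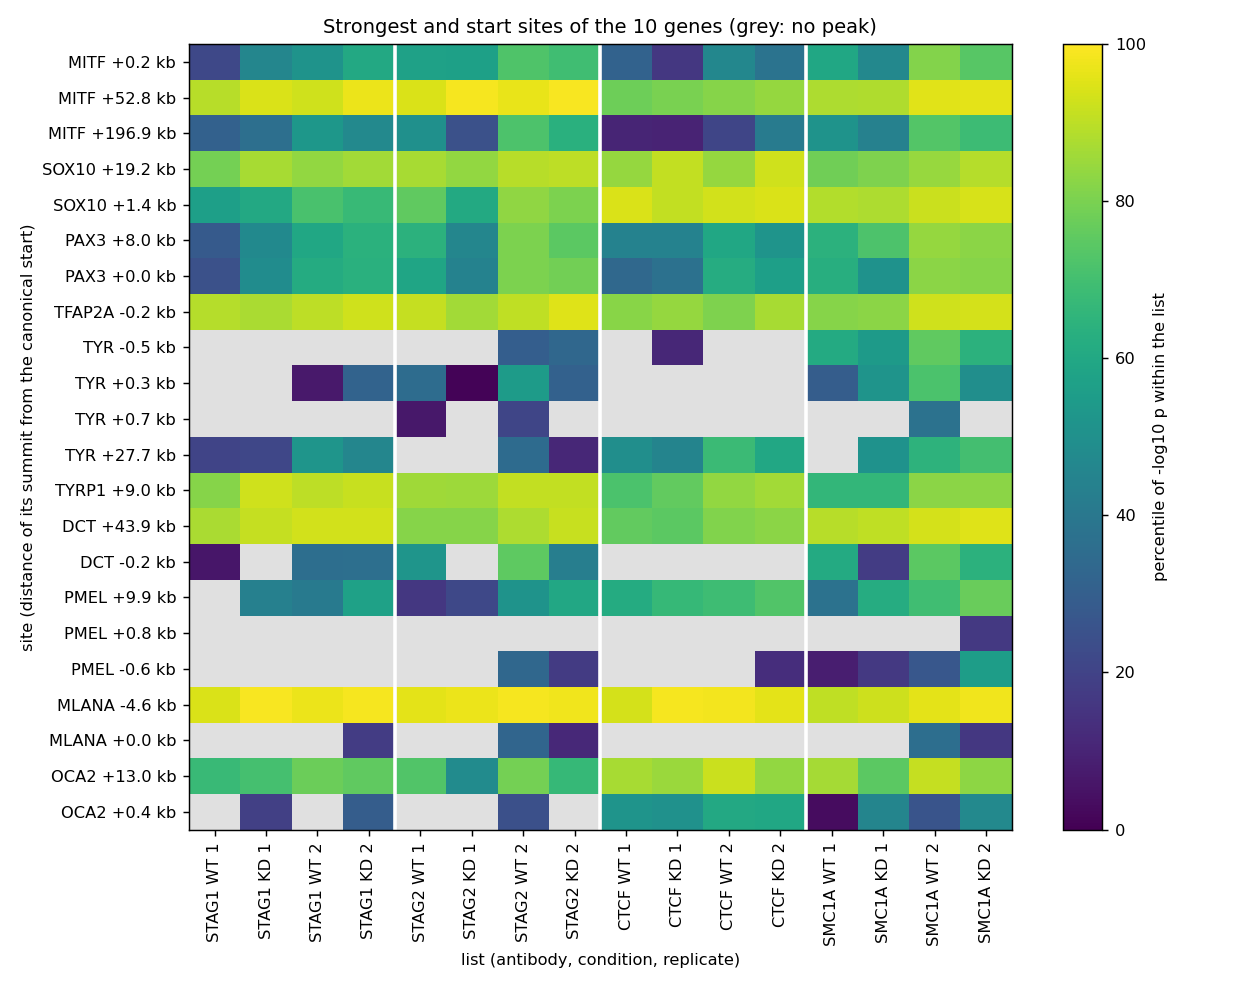
Percentile in each of the 16 lists (columns, grouped by antibody, replicate and condition) at named sites of the 10 genes (rows, with the distance from the canonical start in kb), where yellow is strong, dark blue is weak and grey marks no peak. The strongest site of MLANA stood at 90.6 to 99.2 in every list, whereas the starts of TYR (0.264 kb) and DCT (-0.197 kb) were grey in the CTCF lists.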

How the data were processed

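ChIP-seq peak lists of 4 antibodies in WT and KD, replicates 1 and 2, were used. Input libraries served the authors as controls and have no list here. The authors aligned reads to hg19 and called peaks per library with MACS2 against input. The submitters' notes name Bowtie2 for replicate 1 and BWA for replicate 2. The deposited columns are a score, the fold enrichment, and the -log10 p-value and -log10 q-value. Replicate 1 was thresholded at -log10 q of 2 and replicate 2 at -log10 p of 2, so levels were compared within a set. Peaks off chromosomes 1 to 22, X and Y were left out (0.137 to 4.60% of each list). Depth per library is unknown.

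Windows came from GENCODE bounds lifted to hg19. WT and KD lists were paired by set, since lists of a number were prepared and called together. The pairing was taken from the labels, not tested on the values. The genes, lists and tests were chosen with earlier results of these data known. Sites named are those called in both sets, the strongest of each gene, and those at transcript starts. Lost and gained calls were tested on simulated lists, and the moved call was not. Promoters were read from hg19. Replicates were not stated to be separate cultures, so p-values measure only the spread between these lists. Python 3.11.15, pandas 2.3.3, scipy 1.17.1 and matplotlib 3.10.9 were used. Alternatives covered thresholds, equal list sizes, overlap, window size, site merging and leaving out each replicate.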

Additional observations from a re-analysis of the deposited data

How the results depend on the processing

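The STAG2 results kept their direction and stayed within the spread between replicates under the alternatives tried. Its mean log2 change in peak number ranged from -0.86 to -0.20 on leaving out 1 replicate. This stability was in part fixed in advance. The spread was wide for STAG2 (SD 0.46 for the log2 change, 12.0 for the lost share). Leaving out 1 of 2 replicates cannot go beyond their SD, and for peak number only the direction was compared. Other values moved, and the causes were not tested beyond the construction of each alternative. The mean log2 change in STAG2 peak number, -0.53, was -0.27 with lists of equal size, and that of SMC1A, -0.44, was -0.12 at -log10 q of at least 5, where replicate 2 did not keep the direction. The mean log2 change in STAG1 peak number, 0.10, became -0.39 with lists of equal size (58521 peaks) and -0.0032 within gene bounds. That of CTCF, -0.02, became 0.0013 at a common threshold, 0.078 at -log10 q of at least 5, 0.043 without MITF (chosen after seeing the data), and -0.17 to 0.13 leaving out 1 replicate. The mean lost share of STAG1, 20.4%, was 14.3% at the stricter threshold, 24.2% with equal sizes, 25.7% within gene bounds and 17.1% without MITF. Its gained share, 27.2%, was 20.5% at the stricter threshold, 5.56% with equal sizes and 20.4% with 50 kb flanks. Over all STAG1 peaks in replicates 1 and 2, 4.85 and 8.70% were lost and 28.2 and 13.3% gained at the stricter threshold. With equal sizes, 12.5 and 9.68% of all STAG1 peaks were lost and 14.1 and 9.73% gained. CTCF lost 15.3% (4.02% with equal sizes) and gained 16.5% (2.56% with equal sizes, 12.6% with 50 kb). Over all CTCF peaks with equal sizes, 8.41 and 6.97% were lost and 8.67 and 7.08% gained in replicates 1 and 2. SMC1A lost 44.8% (28.8% stricter, 33.7% equal, 52.3% requiring 50% overlap) and gained 24.9% (12.9% equal). Over all SMC1A peaks in replicates 1 and 2, 13.1 and 11.3% were lost at the stricter threshold. With equal sizes, 17.4 and 13.4% of all SMC1A peaks were lost and 18.7 and 14.4% gained. The median percentile change of CTCF, 0.074, was 1.28 with equal sizes and -0.821 without OCA2. That of SMC1A, 0.242, was 3.01 stricter, -1.98 within gene bounds and 1.39 without MITF. The CTCF share of sites, 32.6%, was 50.0% stricter, 49.3% equal, 24.2% with summits grouped, and, as choices made after seeing the data, 47.5% of sites in at least 2 lists and 56.6% of sites of STAG1, STAG2 or CTCF. The share over all sites was not taken at the stricter threshold, with equal sizes or with summits grouped. Whether the windows stayed poorer in CTCF than all sites at those settings was thus not tested. With the replicate block, exact sign-flip p was 0.5 for STAG2 and SMC1A and 1.00 for STAG1 and CTCF, where 0.5 is the smallest possible, and the log2 changes (0.10, -0.53, -0.02 and -0.44 for STAG1, STAG2, CTCF and SMC1A) were the same.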
